A study of Mus musculus with 4 samples.

Results

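*Dlx6*, *Cacng3*, *Crhbp*, *Ret* and *Chrm3* are 5 genes, of 32285 measured, that have known roles in nerve cells. They were chosen by their higher UMI counts in the *Ets1*-deleted endothelium of these embryonic hearts, although control endocardium already expressed *Chrm3*. Each gene was taken by its symbol in the 4 matrices, so their eKO against control difference in endothelial cells selected them and is given here as a description, with no test. Single-cell RNA-seq was performed on E14.5 mouse ventricles of a C57BL/6 background. The *Ets1* eKO group was *Tie2*Cre; *Ets1* fl/fl and the control group *Tie2*Cre; *Ets1* fl/+, so all 4 libraries carried *Tie2*Cre, whose promoter is active in all cardiac endothelium, and controls retained 1 undeleted allele. Each group had 2 libraries (replicates 1 and 2) in batch 1, each pooled from the ventricles of 3 embryos whose sex was not genotyped.

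The 5 genes have known roles in the development or signalling of nerve cells. *Dlx6* is a homeobox transcription factor that lies beside its relative *Dlx5* and is used in the forebrain and in the pharyngeal arches. *Cacng3* encodes a transmembrane protein of the calcium channel gamma family that accompanies AMPA-type glutamate receptors. *Crhbp* encodes a secreted protein that binds corticotropin-releasing hormone and keeps it from its receptors. *Ret* encodes the receptor tyrosine kinase for GDNF-family ligands, which act through GFRA co-receptors, and *Chrm3* encodes the muscarinic acetylcholine receptor M3, coupled to Gq and phospholipase C. Endocardium, the inner lining of the ventricle, and coronary endothelium, the lining of the coronary vessels, are the tissues in which ETS-family factors are known as regulators of endothelial genes.

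In the GRCm38 annotation, *Dlx6* (ENSMUSG00000029754) occupies chr6:6863334-6868568 on the plus strand, within the antisense gene *Dlx6os1* on the minus strand, and *Dlx5* lies 9.24 kb beyond it. *Cacng3* (ENSMUSG00000066189) lies at chr7:122670492-122769393 on the plus strand. The other members are on minus strands: *Crhbp* (ENSMUSG00000021680) at chr13:95431371-95444924, *Ret* (ENSMUSG00000030110) at chr6:118151745-118197718 and *Chrm3* (ENSMUSG00000046159) at chr13:9875486-10360847. *Chrm3* overlaps the measured antisense gene *Gm26861* and the measured sense-intronic genes *Gm47404* and *Gm47405*, so reads in the shared stretches could be split between them. A promoter of 300 bases, from 250 bases before to 50 bases after the RefSeq start (build GRCm38.p6), is given for *Chrm3* and *Crhbp*. These are shown because the deleted gene encodes an ETS factor, a family whose DNA-binding domain recognises GGAA. Capitals mark GGAA or its complement TTCC, and each sequence reads 5′ to 3′ on the strand of the gene.
Chrm3 promoter, chr13:10360754-10361053, minus strand: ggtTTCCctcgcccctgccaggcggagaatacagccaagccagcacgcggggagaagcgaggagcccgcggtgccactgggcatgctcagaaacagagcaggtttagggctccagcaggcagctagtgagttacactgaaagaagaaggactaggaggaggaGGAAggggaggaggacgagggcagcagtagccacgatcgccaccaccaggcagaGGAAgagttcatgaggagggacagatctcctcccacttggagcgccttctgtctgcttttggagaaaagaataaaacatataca
Crhbp promoter, chr13:95444782-95445081, minus strand: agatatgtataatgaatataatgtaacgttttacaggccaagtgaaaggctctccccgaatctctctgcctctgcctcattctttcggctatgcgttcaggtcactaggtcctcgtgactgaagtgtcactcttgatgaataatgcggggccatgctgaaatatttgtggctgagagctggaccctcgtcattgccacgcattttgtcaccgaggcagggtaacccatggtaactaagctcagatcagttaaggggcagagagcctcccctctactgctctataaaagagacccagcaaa

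The *Chrm3* window held 3 matches to GGAA on both strands together and the *Crhbp* window 0. Matches of these 4 letters were common: 96.0% of 32851 RefSeq promoters of the same length held at least 1, with a median of 3. The longer ETS motif CCGGAAGT, searched on both strands and containing GGAA, was in neither window and in 3.89% of all promoters.

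Cells were assigned to classes by marker genes, and 37913 cells were kept. Of these, 4524 were mural endocardium-like (mEndo), led by *Npr3*, 844 valve endocardium-like (vEndo) and 1496 coronary vascular endothelium-like (cvEC). A further 18900 were cardiomyocyte-like, 7634 fibroblast-like, 762 epicardial-like and 803 immune-like. The libraries held 76931208 to 124140739 UMIs, with a median of 5330 UMIs per kept cell in eKO replicate 2 and 8275 to 8729 in the other 3. Pairs of libraries shared 16 to 32 cell barcodes, at most 0.383% of the smaller library. *Xist* and 4 Y-linked genes showed that control replicate 1 held male cells with no mural, valve or coronary cell called female, that eKO replicate 2 was nearly all female, and that control replicate 2 and eKO replicate 1 held both sexes. Sex is therefore partly confounded with genotype, and values within each sex of the latter 2 libraries are given beside the results. Levels are the UMIs of a gene divided by all UMIs of the class in that library and scaled to 1000000 (CPM). The labels do not say that the pools came from separate litters, so p-values measure only the spread between these libraries.

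*Ets1*, the targeted gene, was lower in all 3 endothelial classes of the eKO. In mEndo it was at 279 and 259 CPM in control replicates 1 and 2, against 119 and 93.4 CPM in eKO replicates 1 and 2 (log2 fold −1.28 ± 0.14 SE, adjusted p = 8.0e-04, edgeR quasi-likelihood test with Benjamini-Hochberg adjustment). In cvEC it was at 368, 328, 177 and 128 CPM in the same order (log2 fold −1.11 ± 0.17, adjusted p = 0.014, edgeR). Which exons the floxed allele loses was not given in the sources used here, so the 3′ tags that remained do not measure intact transcript. In fibroblast-like cells *Ets1* was at 101, 86.6, 62.9 and 59.5 CPM, a difference that did not pass the test (adjusted p = 0.245, edgeR).

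Most endothelial UMIs of *Dlx6* were found in mEndo of the eKO. In mEndo it had 0 UMIs in 1023 cells of control replicate 1 and 1 UMI in 749 cells of control replicate 2. It had 13 UMIs in 939 cells of eKO replicate 1 and 24 UMIs in 1813 cells of eKO replicate 2, so the groups did not overlap. These counts correspond to 0, 0.156, 1.73 and 2.66 CPM. The pooled eKO level was 32.7 times the pooled control level, with an exact 95% interval of 5.52 to 1326 that covers counting error only. Each of the 37 positive eKO cells held 1 UMI, and they made up 1.38% and 1.32% of mEndo cells in eKO replicates 1 and 2. With every cell thinned to 2000 UMIs, which left out 63 control and 132 eKO cells below that depth, 0.496% of eKO cells and 0.0585% of control cells were positive. In vEndo no library had a UMI of *Dlx6*, and cvEC had 1 UMI in control replicate 2 and 1 in eKO replicate 1. The 414 endothelial cells that met no class gate had 0, 0, 1 and 2 UMIs, at 0, 0, 1.44 and 2.70 CPM, which is near the level in mEndo.

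The largest number of *Dlx6* UMIs in the controls came from cardiomyocyte-like cells, the largest class. By level, control fibroblast-like cells were alike, with a mean of 0.199 CPM against 0.194 CPM. Classes outside the endothelium were also counted under the rule for the members, so tests of members there are descriptions only. In cardiomyocyte-like cells *Dlx6* had 14, 6, 12 and 9 UMIs, at 0.223, 0.166, 0.248 and 0.192 CPM, with overlapping groups. No difference passed the test there (log2 fold 0.25 ± 0.46, adjusted p = 0.811, edgeR). Fibroblast-like cells had 1, 5, 2 and 1 UMIs, at 0.0665, 0.332, 0.161 and 0.111 CPM, also with overlapping groups. With the stricter gate for mEndo, both controls had 0 UMIs and the eKO libraries 10 and 18. At that gate the eKO level was at least 9.67-fold higher than the level of 3 UMIs over the control group. Without control replicate 1 the pooled ratio was 14.4, and without control replicate 2 the controls held no UMI and the eKO was at least 6.10-fold above the level of 3 UMIs in control replicate 1.

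**Figure D1:**
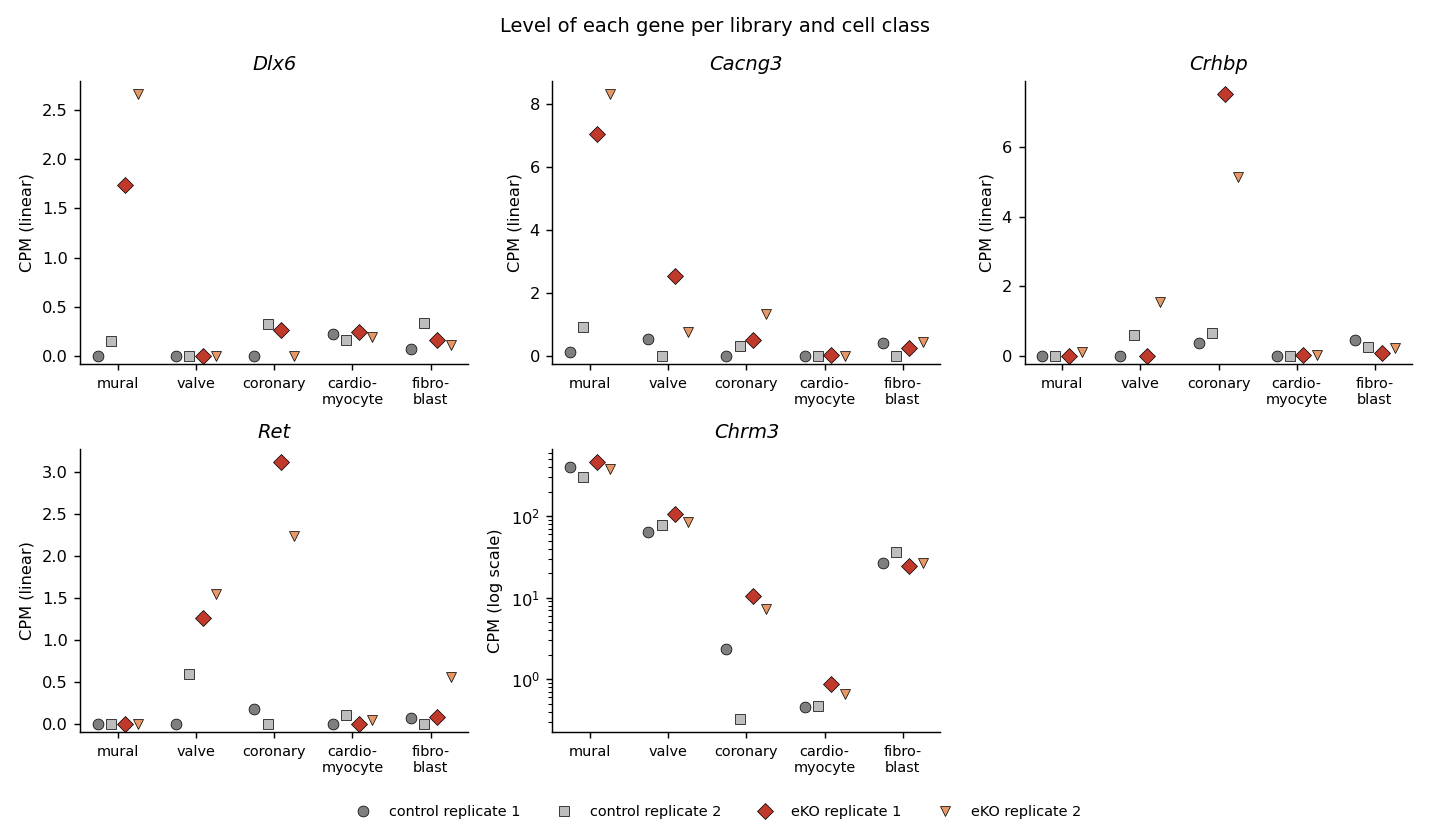
Level in CPM of each of the 5 genes (1 panel each) in mural, valve and coronary endothelial-like cells, cardiomyocyte-like cells and fibroblast-like cells; each point is 1 library, and the axis for *Chrm3* is logarithmic. *Dlx6* and *Cacng3* stood highest in mural eKO cells, *Crhbp* and *Ret* in coronary eKO cells, and *Chrm3* in mural cells of both groups at 299 to 464 CPM.

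The transcripts around *Dlx6* were measured separately and are not members. *Dlx6os1*, the antisense RNA across *Dlx6*, was at 0.245, 0.156, 5.07 and 3.44 CPM in mEndo, on 2, 1, 38 and 31 UMIs. Both eKO libraries were above both controls. Since it lies at the locus of *Dlx6* and passed the filter on low counts only through the eKO libraries, it is described with no test. *Dlx5*, on the other side of *Dlx6*, was at 0.122, 0.622, 1.33 and 2.00 CPM, on 1, 4, 10 and 18 UMIs, and is given with no test for the same reason. Among the genes tested in mEndo, 3.28% were called in either direction and 1.55% were called higher in the eKO. Both eKO libraries stood above both controls for 19.9% of them. How the counting treated strand was not given in the sources used here. *Dlx6* and *Dlx6os1* were detected together in 3 cells of each eKO library, where 0.46 and 0.37 cells would hold both if the detections were unrelated. *Dlx6* and *Dlx5* shared 0 and 2 cells, with 0.12 and 0.24 for unrelated detections.

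In cardiomyocyte-like cells the trio differed in order: *Dlx5* was at 0.510, 0.580, 0.766 and 0.918 CPM (log2 fold 0.75 ± 0.29, adjusted p = 0.409, edgeR). *Dlx6os1* there was at 0.271, 0.359, 0.373 and 0.192 CPM, with overlapping groups (log2 fold −0.0047 ± 0.46, adjusted p = 0.997, edgeR). The remaining *Dlx* genes on the list, *Dlx1*, *Dlx2*, *Dlx3* and *Dlx4*, had at most 1 UMI in any mEndo library. The next genes outward, *Sem1*, *Slc25a13* and *Sdhaf3*, had log2 folds between −0.30 and 0.22 in mEndo, none called.

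**Figure D2:**
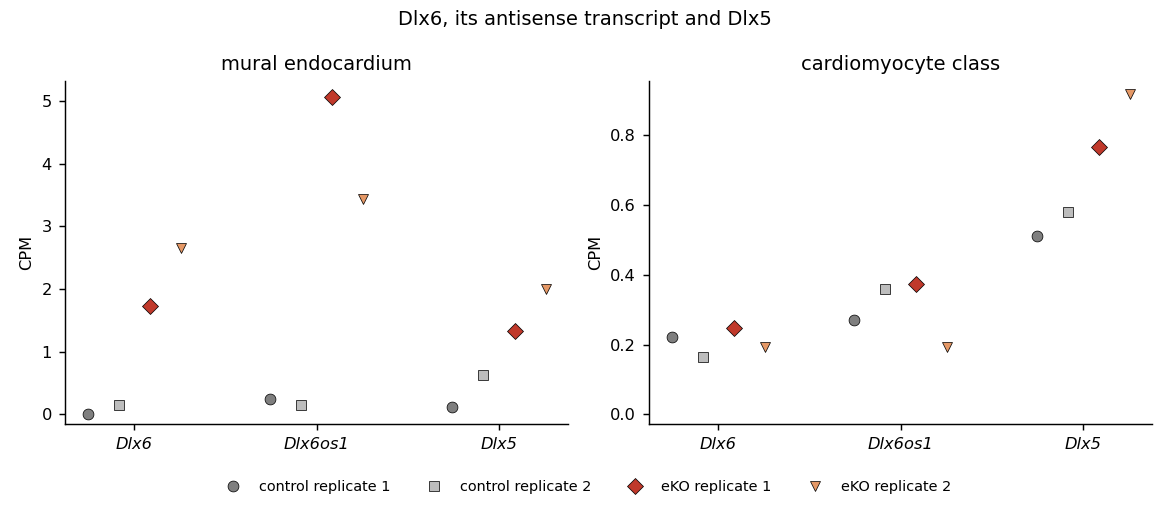
Level in CPM of *Dlx6*, its antisense transcript *Dlx6os1* and *Dlx5* in mural endocardium-like cells (left) and cardiomyocyte-like cells (right); each point is 1 library and the axes differ in range. In mural cells both eKO libraries lay above both controls for the 3 transcripts; in cardiomyocyte-like cells this held for *Dlx5* only, from 0.510 to 0.918 CPM, and it did not pass the test.

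*Cacng3* was the second member found in mEndo. It had 1 UMI in control replicate 1, 6 in control replicate 2, 53 in eKO replicate 1 and 75 in eKO replicate 2, at 0.122, 0.933, 7.07 and 8.32 CPM. Both eKO libraries lay above both controls. The pooled ratio was 16.2 (exact 95% counting interval 7.62 to 41.0), and it was 8.30 without control replicate 1 and 63.3 without control replicate 2. The UMIs of control replicate 2 came from 3 cells, 1 of which held 4. In the eKO, 85 mEndo cells were positive, 3.19% and 3.03% of the class in replicates 1 and 2, and 23 of them held 2 or more UMIs, up to 5. After the same thinning the share was 1.07% of eKO cells and 0.0585% of control cells. It differed between the eKO libraries, at 0.546% (5 of 915 cells) in replicate 1 and 1.35% (23 of 1705) in replicate 2. No immune-like cell held a UMI of *Cacng3*, *Dlx6* or *Crhbp*. The *Chrm3* UMIs of these cells are given with the coronary values of *Chrm3*. The median depth of the immune-like cells was 3547 to 6759 UMIs, against 4228 to 7348 in mEndo. The class was small, with 638834 to 1268913 UMIs in all per library, against 6429616 to 9016702 in mEndo. The absence of UMIs there therefore sets only a weak limit.

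In vEndo and cvEC *Cacng3* was sparse. vEndo had 1, 0, 4 and 1 UMIs and cvEC 0, 1, 2 and 6 UMIs, in the order of the 2 control and 2 eKO libraries. In both classes the eKO libraries lay above the controls in CPM, but every library held at most 6 UMIs. That order held for 17.5% of tested genes in vEndo and 14.5% in cvEC. Endothelial cells that met no class gate had 0, 0, 6 and 4 UMIs, at 0, 0, 8.61 and 5.39 CPM, a level like that of mEndo on few UMIs. Fibroblast-like cells had 6, 0, 3 and 4 UMIs, at 0.399, 0, 0.242 and 0.446 CPM, with overlapping groups. Markers of other cells moved with genotype in mEndo: the 14 fibroblast markers summed to 865, 711, 1356 and 1294 CPM there and the coronary gate markers to 76.3, 77.8, 112 and 122 CPM. *Cacng3* and *Dlx6* were both lower in fibroblast-like cells and cvEC of the eKO than in mEndo of the eKO, and the part of such cells in their mEndo values was not tested further. In mEndo of the eKO, *Cacng3* stood at 10.1 CPM in cells with a UMI of *Dlk1*, which encodes a protein related to Notch ligands, and 2.86 CPM in cells without one in replicate 1. The corresponding levels in replicate 2 were 8.70 and 7.78 CPM, so the gap was wide in 1 library only. Cells with a *Dlk1* UMI were deeper, with median depths of 7763 against 6145 UMIs in replicate 1. With a UMI of *Slit2* the *Cacng3* level was higher in both eKO libraries, 8.94 against 4.76 CPM and 9.54 against 7.20 CPM, and these cells were also deeper. With a UMI of *Nrg1* it was lower in both, 5.21 against 9.01 CPM and 8.23 against 8.41 CPM. *Cacng3* and *Dlx6* were found together in 1 cell of each eKO library, where 0.42 and 0.73 would be expected of unrelated detections.

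The AMPA receptor and calcium channel partners were followed as fixed lists. Of 11 other gamma subunits and AMPA receptor subunits, 3 could be tested in mEndo and none was called (median log2 fold 0.21, against 0.0022 over all tested genes). Of 16 alpha, beta and alpha2delta subunits of voltage-gated calcium channels, 11 could be tested and none was called. The nearest to the threshold was *Cacna1e*, an R-type channel subunit, at 27.1, 16.3, 11.9 and 9.43 CPM (log2 fold −0.98 ± 0.24, adjusted p = 0.053, edgeR). It passed in 6 of 12 alternatives (adjusted p from 2.0e-04 to 0.38, edgeR or DESeq2), and its log2 fold was −0.57 without control replicate 1. Of the neighbours of *Cacng3*, *Prkcb*, *Chp2*, *Rbbp6* and *Tnrc6a* had log2 folds between −0.40 and 0.17 in mEndo, none called.

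*Crhbp* was found in cvEC. It had 2 UMIs in 401 cells of control replicate 1 and 2 in 213 cells of control replicate 2. It had 29 UMIs in 324 cells of eKO replicate 1 and 23 in 558 cells of eKO replicate 2. The levels were 0.362, 0.648, 7.52 and 5.13 CPM, and the groups did not overlap. The pooled ratio was 13.4 (exact 95% counting interval 4.95 to 51.2) and ranged from 9.63 to 17.3 as each library was left out. Positive cells made up 7.72% and 3.05% of cvEC in eKO replicates 1 and 2, and 8 of the 42 held 2 or more UMIs. The cvEC of eKO replicate 2 were shallower, with a median of 6087 UMIs against 9694 in replicate 1. Thinned to 2000 UMIs, 7 of 853 eKO cells (0.821%) and 1 of 605 control cells (0.165%) were positive. The eKO libraries still differed after thinning, with 5 of 310 cells (1.61%) in replicate 1 and 2 of 543 (0.368%) in replicate 2. Control replicate 1 had 1 of 395 (0.253%) and control replicate 2 had 0 of 210. In mEndo, 1 UMI was found in 4524 cells. Among cvEC of the 4 libraries 0.946% of tested genes were called in either direction, 0.593% were called higher in the eKO, and both eKO libraries stood above both controls for 14.5%.

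Within cvEC of the eKO, *Crhbp* did not follow an arterial marker in 1 direction. In replicate 1 its level was 6.24 CPM in cells with a UMI of *Gja4*, an arterial gap junction gene, and 8.16 CPM in those without. In replicate 2 the order was opposite, 7.30 and 4.31 CPM. Cells with at least 3 of 8 cycling genes gave 7.58 against 7.41 CPM in replicate 1 and 6.24 against 3.14 CPM in replicate 2. Cells with a UMI of the potassium channel gene *Kcnj8* had the higher *Crhbp* level in both libraries, 10.3 against 6.60 CPM in replicate 1 (10 UMIs in 72 cells and 19 in 252) and 7.06 against 4.59 CPM in replicate 2 (7 in 89 and 16 in 469), and they were also the deeper cells. The state genes named here, above for *Cacng3* and below were chosen after their values were seen. In fibroblast-like cells *Crhbp* had 7, 4, 1 and 2 UMIs, at 0.466, 0.266, 0.0807 and 0.223 CPM. Both eKO libraries lay below both controls there, as for 33.9% of the genes tested in that class, on counts too low to test.

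The ligands and receptors of the CRH system were nearly absent from the endothelium. No library had a UMI of *Crh* or of its receptor *Crhr1* in mEndo or cvEC, and *Crhr2* had at most 1 UMI per library in either class. Of the 6 genes on the list, 2 had a UMI in cvEC and none could be tested. The neighbours of *Crhbp* that could be tested in cvEC were *Aggf1* (log2 fold 0.095 ± 0.15, adjusted p = 0.818, edgeR) and *Zbed3* (log2 fold −0.42 ± 0.16, adjusted p = 0.299, edgeR).

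*Ret* was also found in cvEC. It had 1 UMI in control replicate 1, 0 in control replicate 2, 12 in eKO replicate 1 and 10 in eKO replicate 2, at 0.181, 0, 3.11 and 2.23 CPM. Both eKO libraries were above both controls, and the pooled ratio was 22.7 (exact 95% counting interval 3.68 to 939). The pooled ratio was 14.6 without control replicate 2. Without control replicate 1 the controls held no UMI, and the eKO was at least 2.72-fold above the level of 3 UMIs in the group that remained. Positive cells were 3.40% and 1.61% of cvEC in the 2 eKO libraries, and without the removal of doublets the pooled ratio was 11.1. Thinned to 2000 UMIs, 3 of 853 eKO cells and 0 of 605 control cells were positive, the latter with an exact 95% upper bound of 0.608%. *Ret* did not pass the filter on low counts in any class. In mEndo it had no UMI in any library, which in the largest of them leaves an exact 95% upper bound of 0.203% on cells with a UMI, not on cells that express the gene. In vEndo it had 0, 1, 2 and 2 UMIs, and in cardiomyocyte-like cells 0, 4, 0 and 2. Fibroblast-like cells had 1, 0, 1 and 5 UMIs (pooled ratio 8.45, exact 95% counting interval 1.03 to 389). Both eKO libraries were above both controls in CPM there, as for 12.2% of the genes tested in that class. Immune-like cells had 1 UMI of *Ret*, in a control.

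The *Ret* UMIs in eKO cvEC fell mostly in cells that also held *Kcnj8*, a potassium channel subunit. In eKO replicate 1, 9 of 12 UMIs were in the 72 cells with a *Kcnj8* UMI and 3 in the 252 without, at 9.24 and 1.04 CPM. In eKO replicate 2, 8 of 10 were in 89 such cells and 2 in 469 others, at 8.07 and 0.573 CPM. The arterial gene *Gja4* gave 4.68 against 2.33 CPM in replicate 1 and 7.30 against 0.308 CPM in replicate 2. Cells with *Kcnj8* had median depths of 12158 and 9065 UMIs, against 9180 and 5812 without. *Kcnj8* is also a pericyte marker. The other 7 smooth muscle and pericyte markers had 4 and 1 UMIs in all in the *Ret*-positive cells of the 2 eKO libraries (19.6 and 8.33 CPM) and 91 and 145 UMIs in *Ret*-negative cvEC (24.9 and 33.3 CPM), too few to compare. *Kcnj8* itself was at 127 and 225 CPM against 44.6 and 38.1 CPM. The part of pericytes in these values was not tested. *Crhbp* and *Ret* were found together in 1 cell of each eKO library, where 0.85 and 0.27 would be expected of unrelated detections.

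**Figure D3:**
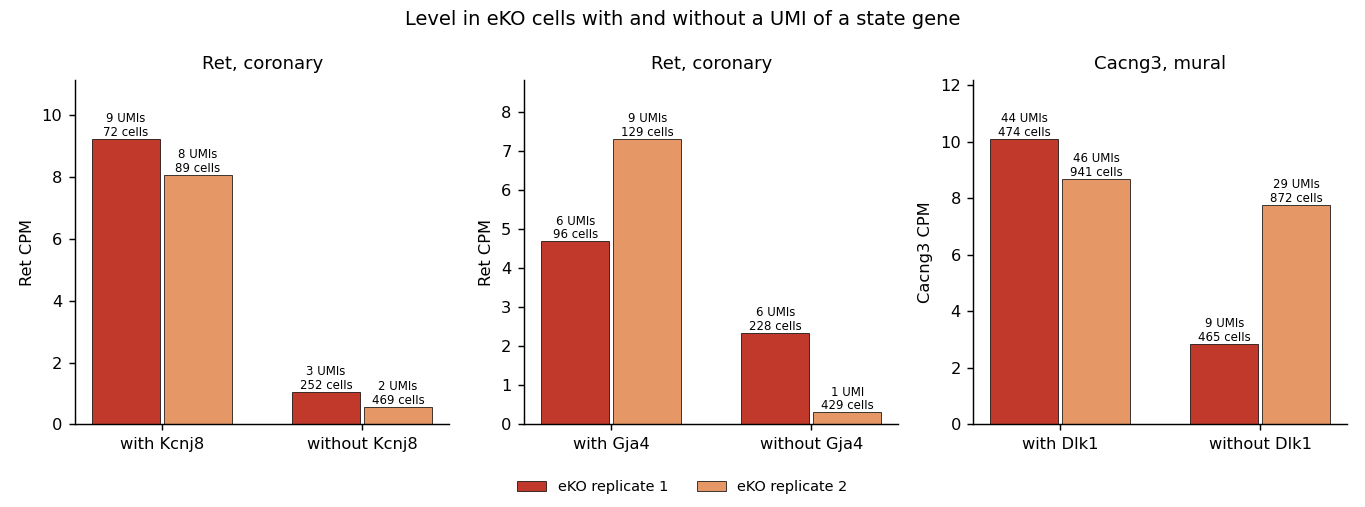
Level in CPM of *Ret* in coronary eKO cells with and without a UMI of *Kcnj8* (left) or *Gja4* (middle), and of *Cacng3* in mural eKO cells with and without a UMI of *Dlk1* (right); each bar is 1 eKO library, labelled with its UMIs and cells. *Ret* stood at 9.24 and 8.07 CPM in cells with *Kcnj8* and at 1.04 and 0.573 CPM in those without; *Cacng3* separated by *Dlk1* in replicate 1 only.

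The GDNF-family ligands and co-receptors were low in the same cells. *Gdnf* had 1 UMI in cvEC of the 4 libraries and none in mEndo, and the co-receptor *Gfra1* had 1 or 2 UMIs per library in cvEC. *Gfra2* and *Gfra3* had none there. Of the 18 ligands, co-receptors and adaptors on the list, 6 could be tested in cvEC and none was called, with a median log2 fold of −0.066 against 0.014 over all tested genes. *Csgalnact2*, *Bms1* and *Zfp248*, the testable neighbours of *Ret*, had log2 folds between −0.16 and 0.16 in cvEC, none called.

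*Chrm3* differed from the other 4 members in that the control endocardium already expressed it. In mEndo the controls were at 402 and 299 CPM (350 ± 73.0 SD, n = 2) and the eKO libraries at 464 and 382 CPM (423 ± 58.5, n = 2), with overlapping groups. The pooled ratio was 1.18, and leaving out a library moved it between 1.04 and 1.403. A UMI was found in 59.5%, 55.7%, 71.0% and 56.4% of mEndo cells in the 4 libraries. Thinned to 2000 UMIs the share was 33.8% of control and 41.5% of eKO cells. In both groups the order of levels among the 7 named classes was mEndo, vEndo, fibroblast-like cells and then the others, and neighbouring classes down to the fibroblast-like cells did not overlap in either group. Endothelial cells that met no class gate were at 31.2, 44.9, 142 and 115 CPM, and the 2513 cells that met no gate at all at 37.5, 40.2, 136 and 111 CPM. Both eKO libraries were above both controls in these remainders, which may mix cell types, and stood above vEndo of the eKO. The share of all genes with this order was not computed for the remainders. In vEndo *Chrm3* was at 64.1, 78.4, 106 and 85.2 CPM. Both eKO libraries were above both controls, as for 17.5% of the genes tested in that class. The share of vEndo cells with a UMI was not higher in the eKO, at 19.7% of control and 18.1% of eKO cells. Thinned to 2000 UMIs it was 12.3% and 11.7%. With the stricter gate the pooled vEndo ratio turned from 1.36 to 0.788, on 47 control and 21 eKO UMIs.

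In cvEC *Chrm3* was low, and both eKO libraries lay above both controls, as for 14.5% of the genes tested there. It had 13, 1, 40 and 33 UMIs, at 2.35, 0.324, 10.4 and 7.37 CPM, and a pooled ratio of 5.39 (exact 95% counting interval 3.02 to 10.3). Of the control UMIs all but 1 came from control replicate 1, and the ratio was 27.0 without that library and 3.73 without control replicate 2. With the stricter gate the counts were 9, 0, 12 and 10 UMIs and the ratio 2.46. The positive cvEC were 6, 1, 14 and 16 cells, and 17 of the 30 in the eKO held 2 or more UMIs. Immune-like cells held 0, 0, 4 and 3 *Chrm3* UMIs, with both eKO libraries above both controls. *Chrm3* did not pass the filter on low counts there, and the share of all genes with this order was not computed. The eKO libraries stood at 3.15 and 2.51 CPM there, against 10.4 and 7.37 CPM in cvEC. Whether these immune-like UMIs were background was not tested. The part of free RNA in the coronary ratio was not tested.

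Markers of mEndo moved with *Chrm3* inside cvEC. The 7 mural markers summed to 523 and 1322 CPM in the *Chrm3*-positive cells of eKO replicates 1 and 2 and to 181 and 149 CPM in the negative cells. The 9 coronary markers of the gate summed to 4916 and 4665 CPM in the positive cells and to 9052 and 10114 CPM in the negative ones. Over all cvEC the mural markers summed to 193, 170, 197 and 193 CPM in the 2 control and 2 eKO libraries. In mEndo itself the same markers summed to 5372, 5126, 4383 and 3829 CPM, lower in both eKO libraries. In the 10 and 32 cvEC with a *Dlk1* UMI in eKO replicates 1 and 2, *Chrm3* was at 47.1 and 55.2 CPM, against 8.90 and 3.16 CPM in those without. The part of mural cells in the cvEC difference of *Chrm3* was not tested. *Crhbp*-positive and *Ret*-positive eKO cells had 138 to 225 CPM of mural markers and 10843 to 11606 CPM of coronary markers, and the latter sum was above that of the negative cells in each library.

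**Figure D4:**
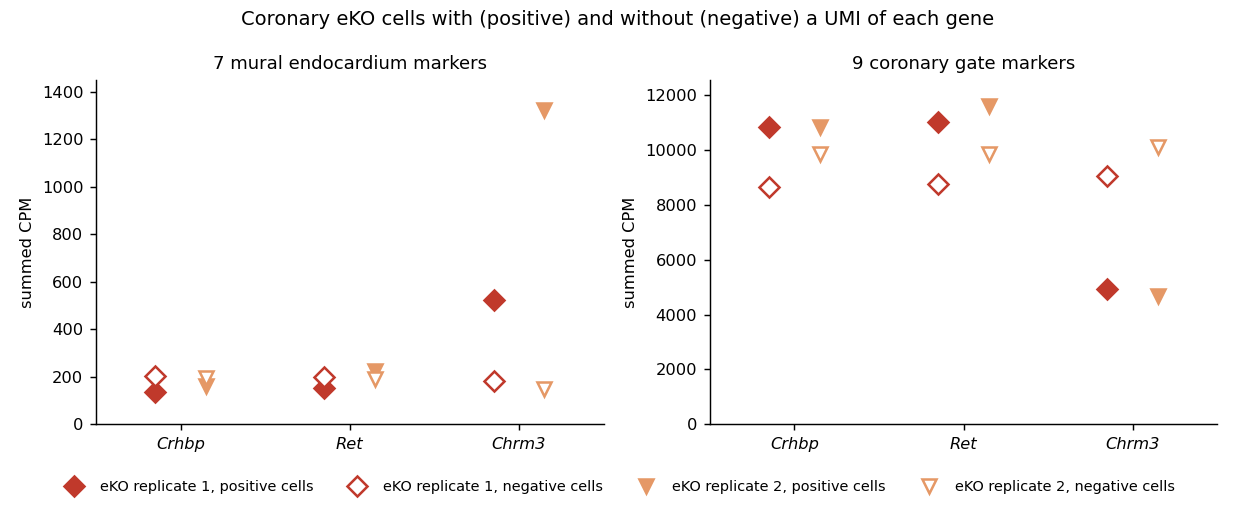
Summed CPM of 7 mural endocardium markers (left) and 9 coronary gate markers (right) in coronary eKO cells with a UMI of *Crhbp*, *Ret* or *Chrm3* (filled) and without one (open), for the 2 eKO libraries. *Chrm3*-positive cells stood apart from the negative cells in both panels, at 523 and 1322 CPM of mural markers; *Crhbp*-positive and *Ret*-positive cells did not carry more mural markers than 225 CPM.

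In the classes outside the endothelium where *Chrm3* passed the filter on low counts, its tests are descriptions only. In fibroblast-like cells it was at 26.4, 36.4, 24.9 and 27.0 CPM (log2 fold −0.18 ± 0.16, adjusted p = 0.679, edgeR). In epicardial-like cells both eKO libraries were below both controls, as for 24.9% of genes tested there, at 12.3 and 10.3 CPM against 5.50 and 5.50 CPM, which did not pass the test (log2 fold −0.96 ± 0.49, adjusted p = 0.764, edgeR). In cardiomyocyte-like cells it was at 0.462, 0.469, 0.870 and 0.662 CPM (log2 fold 0.83 ± 0.30, adjusted p = 0.409, edgeR). Immune-like cells had 0, 0, 4 and 3 UMIs. In the other classes few genes were called by the same test: 0.00625% of those tested in cardiomyocyte-like, 0.027% in fibroblast-like, 0.0406% in epicardial-like and 0.101% in immune-like cells. Both eKO libraries stood above both controls for 11.3% of genes in cardiomyocyte-like cells, where *Chrm3* did so, and for 12.2% in fibroblast-like cells.

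Other members of acetylcholine signalling were detected in mEndo. *Chrm2*, the M2 receptor and also a gene of cardiomyocytes, had 125, 78, 106 and 67 UMIs there, where the 12 cardiomyocyte markers summed to 1208, 678, 1149 and 1548 CPM. The part of cardiomyocyte RNA in the *Chrm2* counts was not tested. No UMI of *Chrm1* or the acetylcholine-synthesising *Chat* was found in mEndo. Of 19 genes on the list, 12 could be tested in mEndo and none was called, with a median log2 fold of −0.28. The lowest adjusted p belonged to *Plcb4*, a phospholipase C, at 52.0, 61.9, 35.9 and 37.8 CPM (log2 fold −0.56 ± 0.15, adjusted p = 0.068, edgeR), and it passed in 5 of 12 alternatives (adjusted p from 0.019 to 0.40). *Itpr1*, the inositol trisphosphate receptor, was at 279, 277, 199 and 189 CPM (log2 fold −0.46 ± 0.13, adjusted p = 0.079, edgeR), and it passed in 3 of 12 (0.035 to 0.39). The neighbours of *Chrm3* that could be tested in cvEC included *Ryr2*, the calcium release channel of cardiomyocytes, at 7.41, 4.86, 11.9 and 9.15 CPM (log2 fold 0.79 ± 0.29, adjusted p = 0.284, edgeR).

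**Figure D5:**
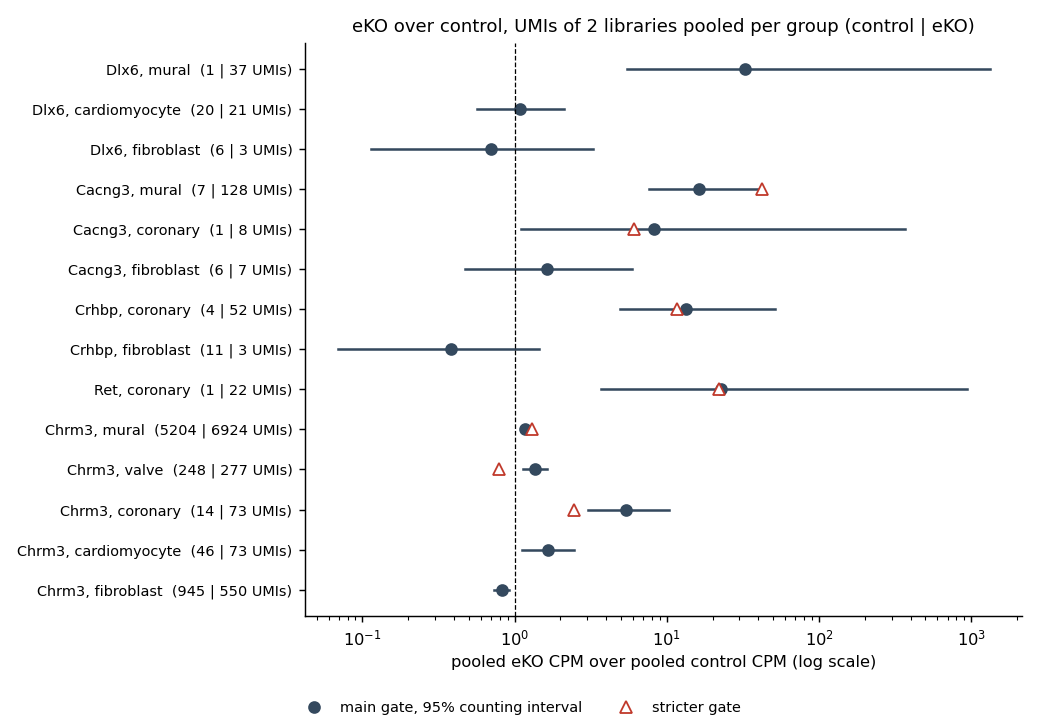
Pooled eKO CPM over pooled control CPM on a logarithmic axis for each gene and class with at least 1 control UMI and 9 UMIs in all, with the exact 95% counting interval (circles and lines) and the value with the stricter gate (triangles); the pair of numbers at each row gives control and eKO UMIs. *Crhbp* and *Ret* in coronary cells kept ratios of 11.6 and 22.2 with the stricter gate, and *Chrm3* moved to 2.46.

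Over the 5 members, 2 had both eKO libraries above both controls in mEndo, 3 in vEndo and 4 in cvEC. This is the pattern by which they were chosen, and nothing is read from it. The share of all tested genes with this pattern in vEndo was 17.5%, and 0.709% of them were called in either direction, 0.326% as higher in the eKO. The filter on low counts was passed by 3 members in mEndo, 1 in vEndo and 2 in cvEC.

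Within each sex, the members were compared between control replicate 2 and eKO replicate 1, the libraries that held both. In male mEndo, *Cacng3* had 0 UMIs in 324 cells of control replicate 2 and 12 in 249 cells of eKO replicate 1. In female mEndo it had 6 UMIs in 320 cells and 40 in 546 cells. *Dlx6* went from 1 to 5 UMIs in male and from 0 to 8 in female cells. *Crhbp* in cvEC had 2 UMIs in 95 male control cells and 19 in 129 male eKO cells, and 0 in 97 against 7 in 129 female cells. *Ret* had 0 UMIs in the control cells of either sex and 6 in the eKO cells of each. Each of these 4 was more frequent in the eKO library in both sexes, with 1 library per group and no test. *Chrm3* in mEndo was at 269 against 468 CPM in female cells and 322 against 464 CPM in male cells. Over all mEndo cells these 2 libraries were the lower control and the higher eKO library, at 299 and 464 CPM. Male mEndo cells of control replicate 1 were at 412 CPM and female ones of eKO replicate 2 at 397 CPM, so a rise is not read from this comparison. In vEndo *Chrm3* went opposite ways, from 62.1 to 138 CPM in female cells and from 121 to 71.5 CPM in male cells.

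*Ets1* transcripts were found in the positive cells too. In eKO mEndo with a *Cacng3* UMI, *Ets1* was at 103 and 119 CPM in replicates 1 and 2, against 119 and 92.2 CPM in cells without. *Dlx6*-positive cells had a lower level than the others in replicate 1 and a similar one in replicate 2, 96.5 against 93.3 CPM. In *Crhbp*-positive cvEC it was at 148 and 132 CPM, against 180 and 127 CPM, and in *Ret*-positive cvEC at 157 and 66.7 CPM, against 178 and 129 CPM. The *Ret*-positive cells held only 32 and 8 *Ets1* UMIs in all. The share of cells with an *Ets1* UMI was higher in *Cacng3*-positive than in other mEndo cells, at 70.0 against 51.4% and 49.1 against 33.0%, but the positive cells were deeper, with median depths of 10252 and 6031 UMIs.

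General nerve and glial genes were followed as further lists. Outside the endothelial classes, a neuron or glia class held 16 and 6 cells in control replicates 1 and 2. It held 1 and 0 cells in eKO replicates 1 and 2, and the part of such cells in the values below was not tested. Of 18 neuron markers, 5 could be tested in mEndo, and 1, *Stmn2*, a microtubule regulator of growing axons, was called: it fell from 25.2 and 25.2 CPM to 11.5 and 7.87 CPM (log2 fold −1.33 ± 0.20, adjusted p = 0.0054, edgeR). With the stricter gate *Stmn2* did not pass (log2 fold −0.73, adjusted p = 0.14, edgeR; over the 12 alternatives the adjusted p ran from 3.4e-08 to 0.14). *Gap43*, a growth cone protein, was at 114, 138, 183 and 165 CPM (log2 fold 0.52 ± 0.14, adjusted p = 0.074, edgeR, and below 0.05 in 5 of 12 alternatives). In cvEC none of 4 testable neuron markers was called, and *Uchl1*, a deubiquitinase abundant in neurons, came nearest (log2 fold 0.67 ± 0.15, adjusted p = 0.065, edgeR, and below 0.05 in 4 of 12 alternatives). The whole list summed to 154, 179, 210 and 189 CPM in mEndo and to 344, 413, 447 and 405 CPM in cvEC. In both eKO libraries this sum was higher in cells with a UMI of *Cacng3* or *Dlx6* (mEndo) than in those without. The same held for *Crhbp*, *Ret* and *Chrm3* in cvEC. For *Cacng3* it was 273 and 308 against 207 and 184 CPM in replicates 1 and 2. For *Ret* it was 470 and 692 against 446 and 397 CPM. The cause was not tested. *Th*, the tyrosine hydroxylase of catecholamine synthesis, and *Chga*, a protein of secretory granules, had no UMI in any of the 3 endothelial classes. The 8 Schwann and neural crest glia markers summed to at most 7.59 CPM in any library of an endothelial class. No called gene on any list was found in vEndo. Over the 8 lists together, without the described *Dlx5* and *Dlx6os1*, edgeR called 0 of 42 testable genes higher in mEndo and 1 lower (4 higher and 7 lower at an unadjusted p under 0.05, beside 2802 of the 12969 genes tested there, 21.6%). In cvEC it called 0 of 27 (4 higher and 2 lower at an unadjusted p under 0.05, beside 1508 of 11305 genes, 13.3%).

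Genes whose levels followed each member over the 28 library and class sums were named by the highest Pearson correlation of log2(CPM + 1), as a description over sums that share libraries and depth. *Cacng3* was most like *Cyp17a1* (r = 0.82), a steroid hydroxylase, *Gm3331* (0.78) and *Mal* (0.75). *Crhbp* was most like *Tmem252* (0.75), *Apln* (0.74), the ligand of the apelin receptor, and *Prnd* (0.74). *Chrm3* was most like *Hs3st4* (0.95), *Gm30648* (0.94) and *Ackr4* (0.94). *Ret*, on its few UMIs, was most like *Eif1ad* (0.69), *Pgf* (0.68) and *Eif6* (0.66), and *Dlx6* most like *Erich2* (0.60), *Gm30524* (0.60) and *Eya1* (0.59). These genes were picked over sums that hold both groups, so their levels are given with no test. *Cyp17a1* was at 11.3, 11.5, 66.3 and 61.8 CPM in mEndo, and *Pgf*, placental growth factor, at 23.9, 24.3, 66.7 and 59.8 CPM in cvEC. *Hs3st4*, the gene most like *Chrm3*, was at 447, 452, 225 and 240 CPM in mEndo, higher in the controls, whereas *Chrm3* itself overlapped between the groups there.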

How the data were processed

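Single-cell RNA-seq (10x 3′ v3.1) was performed on 4 libraries of E14.5 ventricle. The deposited matrices hold UMI counts per gene and barcode, made by the authors with Cell Ranger 7.1.0 on an mm10 reference; Seurat 4.3.0 is also named in the submitters' processing notes. The strand and intron settings of counting were not given in the sources used here. Cells with 200 to 7000 genes, under 20% mitochondrial, 35% ribosomal and 2% hemoglobin UMIs were kept, and 416 to 1531 barcodes per library were removed by a simulated-doublet score at 0.8% per 1000 cells. No cell annotation was used: classes were rebuilt from marker gates whose cut-offs were set after seeing the data. Of 7278 endothelial-gated cells, 98 lay near the coronary cut-off, 454 near the valve and 311 near the mural one. For each class, the raw counts of a library's cells were added up, and the sums were compared by edgeR 4.0.16 in R 4.3.3 (quasi-likelihood, TMM, filterByExpr, Benjamini-Hochberg threshold 0.05, 2 against 2 libraries), after tests on simulated data. Counting intervals are exact at 95% and cover counting error only. Alternatives were total-count scaling, DESeq2 1.42.0, no filter, a replicate block, no doublets removed, a stricter gate, a stricter cell filter, thinning depth and leaving out each library; a crossed block and the pooled ratios were added after seeing the data. The members and lists were chosen with earlier results of these data known. Named genes were the members, the 2 nearest measured protein-coding genes on each side, *Dlx6os1*, *Ets1*, called list genes (at most 6 per list) and, per member, the 3 genes of highest Pearson correlation among those with at least 200 endothelial UMIs; other named list genes were chosen after their values were seen. Gene positions are from GENCODE (GRCm38) and promoters from RefSeq; 1 promoter result is not reported here.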

Additional observations from a re-analysis of the deposited data

Results flagged for a closer look

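*Crhbp* drew attention because it lay in opposite directions in different classes. Both eKO libraries were above both controls in cvEC, while in fibroblast-like cells both were below (pooled ratio 0.384, exact 95% counting interval 0.069 to 1.45, on 11 control and 3 eKO UMIs). *Chrm3* did likewise: both eKO libraries were above both controls in vEndo, cvEC and cardiomyocyte-like cells and below both in epicardial-like cells, where the pooled ratio was 0.484. Both eKO libraries lay below both controls for 33.9% of tested genes in fibroblast-like and 24.9% in epicardial-like cells. In these 4 pairs of classes the difference between classes was not tested.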

How the results depend on the processing

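Of the values for the 5 members, 63 fitted log2 folds, 39 pooled ratios and 40 shares moved by less than their spread or interval, and 6, 6 and 20 moved by more. *Chrm3* in vEndo turned with the stricter gate (fitted log2 fold −0.29, pooled ratio 0.788); the cause was not tested. Genes called in mEndo, 425 as reported, were 1136 with no filter and 283 with the stricter gate, and 246 to 1446 when a library was left out. In vEndo 74 became 28 with DESeq2, 237 with no filter, 30 with no doublets removed and 47 with the stricter gate, and 73 to 102 on leaving out a library. In cvEC 107 became 71 with DESeq2, 381 with no filter and 64 with the stricter gate, and 158 to 505 on leaving out a library. Total-count scaling changed the share of calls higher in the eKO from 47.3% to 32.5% in mEndo and from 62.6% to 42.4% in cvEC. In cardiomyocyte-like cells 1 became 33 with DESeq2 and 6 to 1882 on leaving out a library; in fibroblast-like cells 4 became 124 and 30 to 395; in epicardial-like cells 4 became 0 and 26 to 69; in immune-like cells 9 became 3 and 27 to 64. The largest counts in mEndo, cvEC and cardiomyocyte-like cells came without eKO replicate 1, and a lone library is then assumed to vary like the other group.

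Same-numbered libraries did not deviate together (correlation −0.412 to −0.098 over the 7 classes). With so few libraries, the correlation for differently numbered libraries is the same value with the opposite sign. The check therefore cannot decide whether same-numbered libraries shared a step of the work. With the replicate block the calls were 968 in mEndo, 122 in vEndo, 26 in cvEC, 12 in cardiomyocyte-like, 26 in fibroblast-like and 15 in immune-like cells, and *Ets1* in cvEC did not pass (log2 fold −1.12, adjusted p = 0.088, edgeR) at nearly the fold without the block (−1.11). With crossed numbers, chosen after seeing the data, they were 929, 200, 402, 315 and 130 in the first 5 of these and 32 in epicardial-like cells.

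Among 19 tests of single genes, 162 values under an alternative kept direction and side of the threshold, 23 passed it newly, 2 lost it and 4 changed sign without passing. Those 4 came from leaving out a library: over such omissions the log2 fold ran from −0.059 to 0.23 for *Aggf1* in cvEC, from −0.52 to 0.36 (0.16 without control replicate 2) for *Dlx6os1* in cardiomyocyte-like cells and from −0.36 to 0.031 for *Chrm3* in fibroblast-like cells. The control groups held 1 UMI of *Dlx6* in mEndo and 1 of *Ret* in cvEC, so these ratios have wide counting intervals.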
